A study of Mus musculus with 6 samples.

Results

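The nuclear-encoded subunits of the mitochondrial respiratory chain were compared between undifferentiated mouse embryonic stem (ES) cells and Pax7-GFP cells, a muscle progenitor population obtained by differentiating mouse ES cells. Members were chosen by gene symbol alone: the Nduf genes of complex I, the Sdh genes of complex II, the Uqcr genes of complex III, the Cox4 to Cox8 genes of complex IV and the Atp5 genes of complex V. The rule found 89 probe sets for 80 genes among the 41345 rows of the array table and its 22180 genes with a symbol of their own. Of these 80 genes, 33 belonged to complex I by symbol, 4 to complex II, 8 to complex III, 17 to complex IV and 18 to complex V, and 2 were processed pseudogenes (Atp5c1-ps and Uqcrh-ps1).

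Each group had 3 arrays, hybridised with total RNA. The ES group held undifferentiated, pluripotent cells. The Pax7-GFP group held cells taken by fluorescence-activated sorting for a green reporter of Pax7 after 3 weeks of culture toward skeletal muscle; undifferentiated cultures of the reporter lines served to set the gates. The labels name neither the strain nor the ES lines, and they do not say whether the profiled ES cells carried the reporter or passed through the sorter, so line, culture time and sorting cannot be told apart from differentiation. The titles call the replicates biological without saying what made the cultures separate, and the p-values then cover only the spread among these 6 samples, which may be technical. Values are RMA signals (robust multi-array average) on the log2 scale, where a difference of 1 is 2-fold.

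The respiratory chain passes electrons from NADH (complex I) and succinate (complex II) through complex III and cytochrome c to oxygen at complex IV, and complex V uses the resulting proton gradient to make ATP. Most subunits are encoded in the nucleus and are present in nearly all cells. Several small subunits of complex IV come in pairs, with a widely expressed form and a second form that prevails in heart and skeletal muscle, in lung or low oxygen, or in testis. Adult skeletal muscle relies heavily on this chain, and cultured mouse ES cells are known for high glycolysis.

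The stretches just upstream of the genes of some isoform pairs are shown first, because the results turn on these pairs and the members of a pair have different upstream sequence. They come from RefSeq (GRCm38.p6), which matched 64 of the 80 genes by symbol. Each is the 150 bases before the annotated start, 5′ to 3′ on the strand of the gene. Capitals mark a match to a motif searched below. The first is Cox7a1 (chr7:30184021-30184170, plus strand), the heart and skeletal muscle form, above its widely expressed partner Cox7a2 (chr9:79759854-79760003, minus strand). They are followed by the muscle form Cox8b (chr7:140900447-140900596, minus strand), by its partner Cox8a (chr19:7217617-7217766, minus strand) and by Cox6a1 (chr5:115348959-115349108, minus strand), the widely expressed partner of Cox6a2.
Cox7a1: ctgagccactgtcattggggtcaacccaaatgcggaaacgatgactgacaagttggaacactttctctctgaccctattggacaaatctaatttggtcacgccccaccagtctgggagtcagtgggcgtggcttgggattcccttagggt
Cox7a2: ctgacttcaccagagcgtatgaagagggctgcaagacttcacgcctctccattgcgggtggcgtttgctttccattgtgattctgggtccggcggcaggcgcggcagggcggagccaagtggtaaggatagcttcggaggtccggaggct
Cox8b: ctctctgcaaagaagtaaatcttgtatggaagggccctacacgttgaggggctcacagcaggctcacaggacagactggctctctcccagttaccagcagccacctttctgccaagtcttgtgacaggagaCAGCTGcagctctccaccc
Cox8a: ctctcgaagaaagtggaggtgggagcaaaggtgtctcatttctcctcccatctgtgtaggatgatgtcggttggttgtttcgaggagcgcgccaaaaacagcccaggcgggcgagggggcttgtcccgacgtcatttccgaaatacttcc
Cox6a1: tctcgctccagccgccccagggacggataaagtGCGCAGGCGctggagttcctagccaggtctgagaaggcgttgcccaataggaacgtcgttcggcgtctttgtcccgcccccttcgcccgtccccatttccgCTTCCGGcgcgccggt

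The Cox8b stretch holds a muscle-type E-box (CAGCTG, a sequence bound by myogenic factors) that begins 19 bases before the start. The Cox6a1 stretch holds a match to the NRF1 motif (GCGCANGCG, of nuclear respiratory factor 1) that begins 117 bases before the start, and an ETS motif (CCGGAAG, bound by ETS factors, among them GABP) on the other strand, 16 bases before it. The Cox7a1, Cox7a2 and Cox8a stretches hold no match to the letters searched. Over the full 250 bases before the start and both strands, the NRF1 letters were found for 12 of the 64 genes (18.8%), against 5.86% of all genes with a promoter in the same table. ETS letters were also found for 12 of the 64 (18.8%), against 7.83% of all genes. The E-box letters were found for 6 (9.38%, against 14.7%) and those of estrogen-related receptors (AAGGTCA) for 3 (4.69%, against 4.7%). YY1 letters (AAGATGGC) were found for 1 gene (1.56%, against 1.83%), as was the hypoxia element core (TACGTG, 1.56% against 3.12%). TATAAA on the gene's own strand was found for 2 (3.12%, against 8.94%). A match is a description of the sequence, not a measured binding site.

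Array medians lay between 5.61 and 5.69, arrays of 1 group correlated at 0.987 to 0.997 over all genes, and arrays of different groups at 0.895 to 0.905. The markers of the labelled cell types went with the labels. All 8 pluripotency markers were lower in Pax7-GFP cells and all 6 muscle progenitor markers were higher, with Pax7 up by 5.20. Of 9 markers of differentiating muscle 8 were higher, and Ckm, the creatine kinase of mature muscle, was not past the test (0.08). The Pax7-GFP arrays varied more than the ES arrays, with a median SD over all genes of 0.14 against 0.084.

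The respiratory chain genes rose and fell in shares near those of all genes on the arrays, dim genes included. The 4 changes past the test at 2-fold or more were all in tissue isoforms. A gene is called higher (it rose) or lower (it fell) here when its adjusted p over all 22180 genes was under 0.05. By that rule 14 of the 80 genes rose (17.5%, against 19.7% of all genes) and 17 fell (21.2%, against 21.4%), together 38.8% against 41.1%. The remaining 49 did not pass the test. The median change was 0.0017, with quartiles of -0.20 and 0.20, against a median of 0.024 and quartiles of -0.23 and 0.22 over all genes. At 2-fold or more in addition, 3 members rose (Ndufa4l2, Cox6a2 and Cox4i2; 7.34% of all genes did) and 1 fell (Cox7a1; 7.15% of all genes did). In 70 of the 80 genes (87.5%, against 77.9% of all genes) the 95% confidence interval of the change lay within 2-fold in either direction. The 10 others were Atp5g1, Cox4i2, Cox6a2, Cox6b2, Cox7a1, Cox7c, Cox8b, Ndufa11, Ndufa4l2 and Ndufa7. In bulk RNA such as this, fewer cells of a type and less RNA per cell cannot be told apart.

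Of the 31 genes that passed the test, 19 passed in all 6 fits that left out a single array. Without ES 2 or without ES 3, the respiratory chain genes that rose numbered 9, and without ES 1 or without ES 2, those that fell numbered 11. Over all genes 9126 passed in the main fit, and 7716, 7530 and 7661 passed without ES 1, ES 2 and ES 3. Of 70 members, leaving aside 8 tissue isoforms and the 2 pseudogenes, 9 rose (12.9%, against 19.7% of all genes). A further 15 fell (21.4%, against 21.4%) and 46 did not pass. The changes of these 70 lay between -0.97 and 0.58. For 72 of the 80 genes the mean signal was above that of the median gene, as it was for 11090 genes in all. In a fit of these 11090 genes alone 7220 passed, and of the 72 members among them 14 rose and 15 fell. Members thus passed less often than genes above the median signal did. The pseudogenes were dim in both groups, at means of 3.78 and 3.92 for Atp5c1-ps and 3.78 and 3.94 for Uqcrh-ps1, and neither passed the test.

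**Figure D1:**
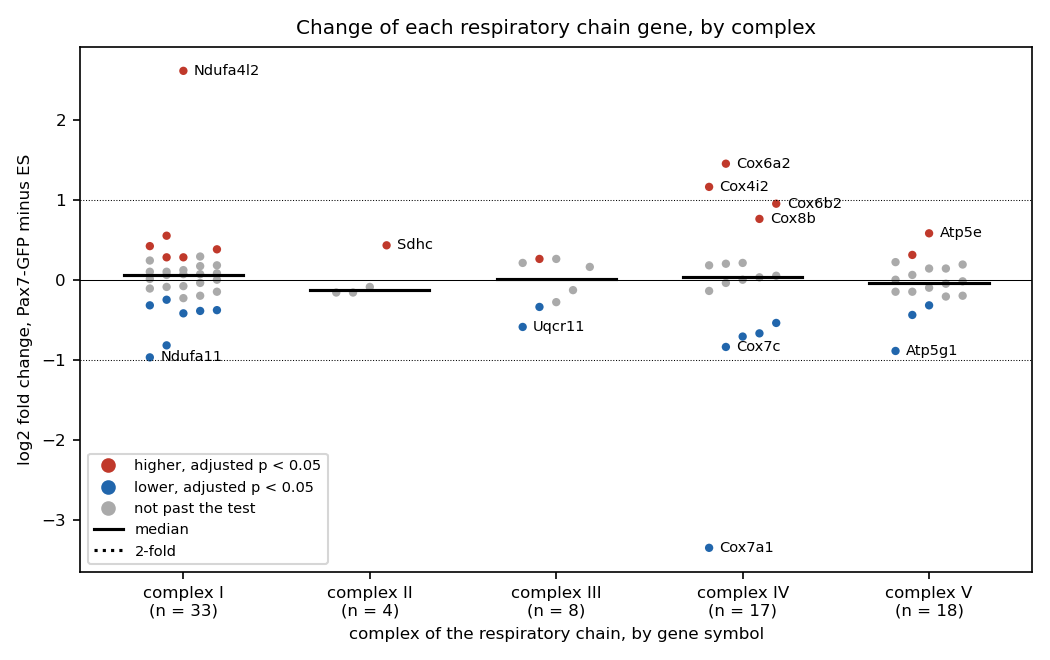
Change of each of the 80 respiratory chain genes on the log2 scale (Pax7-GFP minus ES, 3 arrays each), by complex. Points are genes, coloured by whether they passed the test at an adjusted p under 0.05, thick lines are medians and dotted lines mark 2-fold. The medians lie between -0.12 and 0.063, and the points beyond 2-fold are Ndufa4l2, Cox6a2, Cox4i2 and Cox7a1.

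Complex I, which oxidises NADH, had 6 of 33 genes higher (18.2%, against 19.7% of all genes) and 7 lower (21.2%, against 21.4%). It had 20 that did not pass the test, with a median change of 0.063. Its core subunits are those conserved from bacteria, among them the carriers of the flavin and the iron-sulfur clusters. Of the 6 core genes read here Ndufs8 rose by 0.28, Ndufs1 fell by 0.39, and Ndufs3 (0.18), Ndufs7 (0.12), Ndufv1 (0.06) and Ndufv2 (-0.15) did not pass. Ndufs8 did not pass without ES 1, ES 2 or ES 3, and Ndufs1 did not pass without ES 2 or ES 3. The core genes thus moved little and not in a common direction.

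Among the accessory subunits of complex I, apart from the isoform Ndufa4l2, the largest rise was in Ndufa8, a subunit of the membrane arm on the side of the intermembrane space. Ndufa8 read 9.03, 9.01 and 8.94 in ES cells and 9.62, 9.51 and 9.50 in Pax7-GFP cells. All 3 Pax7-GFP arrays were above all ES arrays, a rise of 0.55 (SE 0.08, adjusted p = 6.48e-04). A second Ndufa8 probe set also rose, by 0.37. Ndufa9 (0.42), Ndufa10 (0.38) and Ndufa2 (0.28) rose as well. Ndufa9 did not pass without ES 2 or ES 3, and Ndufa2 did not pass without ES 1, ES 2, ES 3, Pax7-GFP 1 or Pax7-GFP 3.

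The largest fall in complex I was that of Ndufa11, a membrane arm subunit that contacts complex III in supercomplexes. It read 10.89, 10.87 and 10.81 in ES cells and 9.69, 9.72 and 10.25 in Pax7-GFP cells. All Pax7-GFP arrays were below all ES arrays, and the third was the least so. Ndufa11 fell by 0.97 (SE 0.15, adjusted p = 8.79e-04), but the other Ndufa11 probe set changed by -0.11 and did not pass the test (adjusted p = 0.536), so the call rests on the choice of probe set.

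Ndufa7, an accessory subunit of the matrix arm, read 8.79, 8.91 and 8.73 in ES cells and 8.30, 7.87 and 7.81 in Pax7-GFP cells. Here too the groups were apart, and the gene fell by 0.82 (SE 0.14, adjusted p = 0.00143). Ndufb7 and Ndufb10, both of the membrane arm, changed by -0.42 and -0.38, both past the test. Ndufb10 did not pass without ES 1 or without ES 2. Ndufa1 fell by 0.32 but did not pass without ES 1, ES 2, Pax7-GFP 2 or Pax7-GFP 3. Ndufs5 fell by 0.25 but did not pass without ES 1, ES 2, ES 3, Pax7-GFP 2 or Pax7-GFP 3. The Ndufs5 signals lay below the array medians (5.61 to 5.69) and may be background. In complex I the count of genes that rose was 3 without ES 2 or without ES 3, and the count of genes that fell was 4 without ES 1 and 3 without ES 2.

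Complex II, succinate dehydrogenase, is also an enzyme of the citrate cycle and is encoded wholly in the nucleus. Of its 4 genes only Sdhc, a membrane anchor, passed the test (25%, against 41.1% of all genes). Sdhc read 9.07, 9.10 and 9.04 in ES cells and 9.58, 9.45 and 9.46 in Pax7-GFP cells. The arrays within each group lay close together and the groups were apart, with a rise of 0.43 (SE 0.08, adjusted p = 0.00269). The flavoprotein gene Sdha changed by -0.16 (95% confidence interval -0.35 to 0.03), the iron-sulfur subunit gene Sdhb by -0.09 (-0.28 to 0.10) and the second anchor gene Sdhd by -0.16 (-0.36 to 0.04). These 3 intervals include 0, and the median of the complex was -0.12.

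Complex III, which passes electrons from ubiquinol to cytochrome c, had 1 of 8 genes higher (12.5%) and 2 lower (25%). Over all genes these shares were 19.7% and 21.4%, and the median of the complex was 0.012. The rise was in Uqcrc2, a core protein, at 10.74, 10.78 and 10.69 in ES cells and 11.02, 10.94 and 11.05 in Pax7-GFP cells. The groups were apart by little, with a change of 0.26 (SE 0.078, adjusted p = 0.0275). The larger fall was in Uqcr11, a small accessory subunit, at 8.38, 8.50 and 8.43 in ES cells and 7.80, 7.74 and 7.99 in Pax7-GFP cells. All Pax7-GFP arrays were below all ES arrays, and it fell by 0.59 (SE 0.093, adjusted p = 0.00107). Uqcrb, a ubiquinone-binding accessory subunit, fell by 0.34 (SE 0.084, adjusted p = 0.0106). The second core gene Uqcrc1 (-0.13) and the Rieske iron-sulfur protein gene Uqcrfs1 (0.21) did not pass. Cyc1, the cytochrome c1 of this complex, lies outside the symbol rule and did not pass either (-0.08). The adjusted p of Uqcrc2 was 0.0822, 0.0621 and 0.107 without ES 1, ES 2 and ES 3 and 0.0734 without Pax7-GFP 3, and that of Uqcrb was 0.0515 without ES 1.

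Complex IV, cytochrome c oxidase, had the widest spread among its genes, from -3.35 to 1.45. Of 17 genes 4 rose (23.5%, against 19.7% of all genes), 5 fell (29.4%, against 21.4%) and 8 did not pass. The median was 0.03. All 4 rises and the 2 largest folds were those of tissue isoforms. Among the 10 genes that are not tissue isoforms, 3 fell (30%, against 21.4% of all genes) and 7 did not pass. These 10 included Cox4i1 (0.03), Cox5b (0.20), Cox6a1 (0.18), Cox7a2 (0.05) and Cox8a (0.21), none of which passed the test.

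The 3 widely expressed complex IV genes that fell were Cox7c, Cox6b1 and Cox5a. Cox7c, a small membrane subunit, read 7.29, 7.19 and 7.02 in ES cells and 6.17, 6.23 and 6.58 in Pax7-GFP cells, and fell by 0.84 (SE 0.13, adjusted p = 8.53e-04). Cox6b1, which lies on the side of cytochrome c, read 10.38, 10.31 and 9.96 in ES cells and 9.57, 9.47 and 9.61 in Pax7-GFP cells, and fell by 0.67 (SE 0.12, adjusted p = 0.00219). Cox5a, on the matrix side, read 9.31, 9.34 and 9.22 in ES cells and 8.76, 8.68 and 8.83 in Pax7-GFP cells. It fell by 0.54 (SE 0.083, adjusted p = 9.43e-04). In each of these genes every Pax7-GFP array was below every ES array.

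Complex V, the ATP synthase, had 2 of 18 genes higher (11.1%, against 19.7% of all genes) and 3 lower (16.7%, against 21.4%). The other 13 did not pass, and the median was -0.033. The genes of the catalytic head, Atp5a1 (0.06) and Atp5b (-0.15), did not pass, nor did the central stalk genes Atp5c1 (-0.02) and Atp5d (0.14). The remaining central stalk gene, Atp5e, read 8.11, 7.99 and 7.93 in ES cells and 8.72, 8.38 and 8.69 in Pax7-GFP cells. It rose by 0.58 (SE 0.11, adjusted p = 0.00298), while its other probe set changed by 0.09 and did not pass (adjusted p = 0.438). Of the peripheral stalk genes, Atp5o fell by 0.44 and Atp5pb by 0.32, and Atp5h (0.19) and Atp5j (0.00) did not pass. Atp5pb did not pass without ES 1, ES 2 or Pax7-GFP 2.

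Subunit c, which forms the rotating ring of the ATP synthase, is made as the same mature protein from Atp5g1, Atp5g2 and Atp5g3. Atp5g1 read 6.82, 7.31 and 6.99 in ES cells and 6.20, 6.16 and 6.09 in Pax7-GFP cells. It was lower on every Pax7-GFP array and fell by 0.89 (SE 0.13, adjusted p = 6.08e-04). Atp5g3 read 9.85, 9.87 and 9.88 in ES cells and 10.12, 10.04 and 10.37 in Pax7-GFP cells, a rise of 0.31 (SE 0.10, adjusted p = 0.04). Atp5g2 changed by 0.22 (adjusted p = 0.0535), and its second probe set by 0.22 as well. The genes for subunit c thus differed in sign. The adjusted p of Atp5g3 was 0.0964 to 0.113 without ES 1, ES 2, ES 3 or Pax7-GFP 3, and that of Atp5o was 0.0556 without ES 1 and 0.0677 without ES 2. In complex V the count of genes that fell was 1 without ES 1 or without ES 2.

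**Figure D2:**
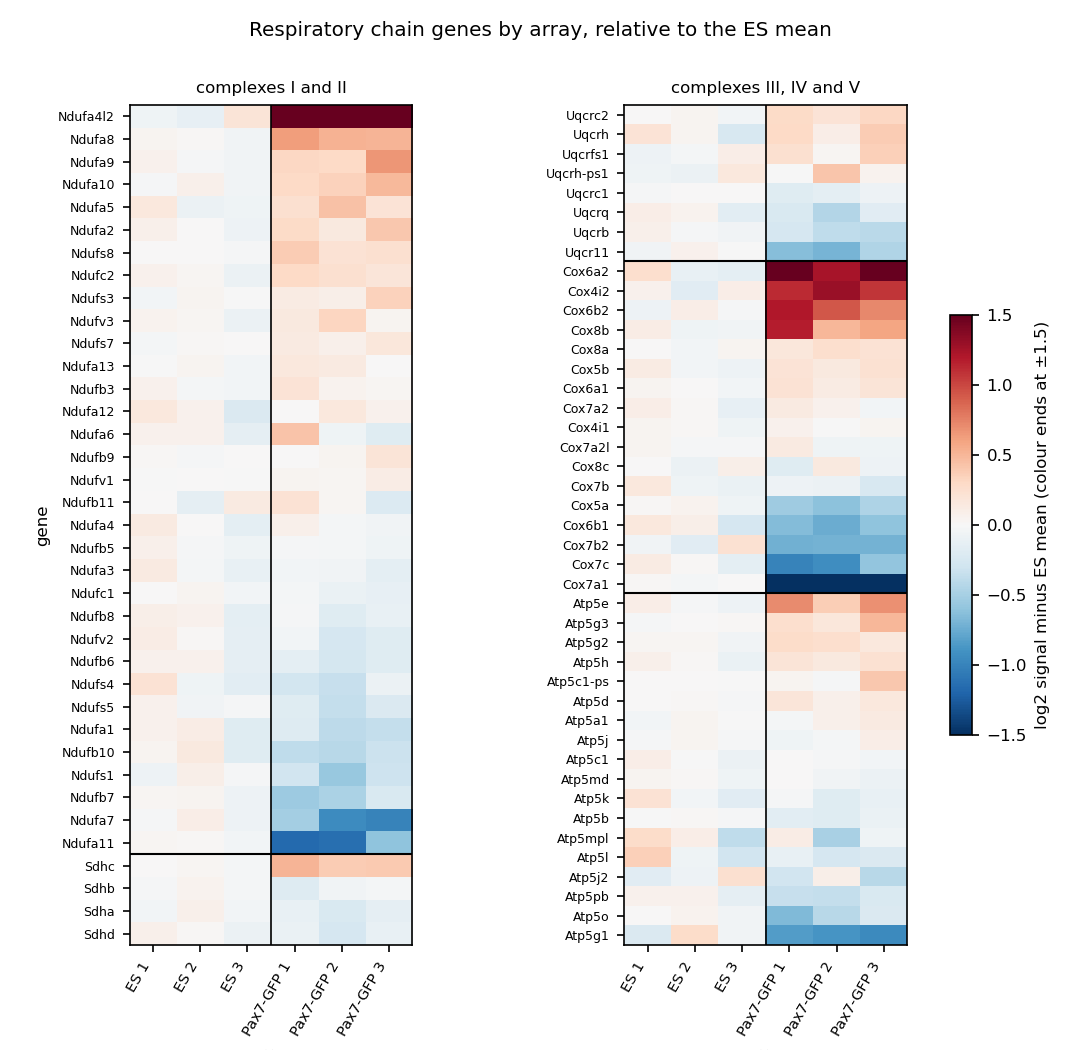
Log2 signal of each respiratory chain gene (rows) on each of the 6 arrays (columns) minus its own ES mean, ordered by change within complexes I and II (left) and III, IV and V (right). Red is higher and blue lower than the ES mean, black lines part the groups and the complexes, and colours end at 1.5 on either side. Most rows are pale, and the rows of deep colour on all 3 Pax7-GFP arrays are Ndufa4l2, Cox6a2, Cox4i2 and Cox7a1.

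The 3 isoforms known from heart and skeletal muscle did not move together: Cox6a2 and Cox8b rose and Cox7a1 fell. Of the 8 tissue isoforms 5 rose (62.5%, against 19.7% of all genes), 2 fell (25%, against 21.4%) and 1 did not pass the test. Levels of different probe sets cannot be compared, so only changes are set side by side. Signals of Cox7a1 in Pax7-GFP cells, and of Ndufa4l2 and Cox8b in ES cells, lay below the array medians (5.61 to 5.69) and may be background, so their folds are folds of the signals and not of transcript. In 9 pairs of respiratory chain genes and 1 pair of ADP/ATP carriers, the log2 difference between isoform and partner was compared between the groups with a two-sided exact permutation test. With 3 arrays against 3 its smallest p is 0.10, so no pair could reach 0.05, and the sizes below stand with the array values. Among the respiratory chain pairs, Cox6b1 was the partner that passed the test.

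Cox7a1, a small membrane subunit whose other form is Cox7a2, showed the largest change of any respiratory chain gene. It read 8.51, 8.46 and 8.49 in ES cells and 5.30, 5.02 and 5.09 in Pax7-GFP cells. The ES arrays lay within 0.05 of each other and every Pax7-GFP array was more than 3 below them. Cox7a1 fell by 3.35 (SE 0.094, adjusted p = 6.63e-08), which is 10.2-fold in signal. Cox7a2 read 11.37, 11.29 and 11.14 in ES cells and 11.40, 11.33 and 11.22 in Pax7-GFP cells, a change of 0.05 (95% confidence interval -0.17 to 0.26). The change of Cox7a1 relative to Cox7a2 was -3.40 (exact permutation p = 0.10, adjusted over the pairs 0.111).

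Cox6a2, the form of Cox6a in heart and skeletal muscle, moved the other way. It read 6.18, 5.82 and 5.78 in ES cells and 7.50, 7.16 and 7.47 in Pax7-GFP cells. The lowest Pax7-GFP array was well above the highest ES array, and the rise was 1.45 (SE 0.14, adjusted p = 5.88e-05), which is 2.74-fold. Cox6a1 changed by 0.18 (95% confidence interval 0.00 to 0.36, adjusted p = 0.103). Relative to Cox6a1, Cox6a2 was higher by 1.27 in Pax7-GFP cells (exact permutation p = 0.10, adjusted 0.111).

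Cox8b, the muscle form whose upstream stretch holds the E-box, read 5.47, 5.29 and 5.30 in ES cells and 6.53, 5.85 and 5.95 in Pax7-GFP cells. The first Pax7-GFP array stood above the others, and all were above the ES arrays. The rise was 0.76 (SE 0.17, adjusted p = 0.00732), and with values under 5 raised to 5 before the fit the adjusted p was 0.0556. Cox8a changed by 0.21 (95% confidence interval 0.04 to 0.39, adjusted p = 0.0569), and the change of Cox8b relative to it was 0.54 (exact permutation p = 0.10, adjusted 0.111). Without Pax7-GFP 1 that value was 0.31.

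The 2 isoforms linked to lung or low oxygen both rose. Ndufa4l2, a paralog of Ndufa4 that is known as a target of hypoxia-inducible factors, read 5.14, 5.08 and 5.40 in ES cells and 8.31, 7.62 and 7.51 in Pax7-GFP cells. All Pax7-GFP arrays were far above the ES arrays, and the rise of 2.61 (SE 0.20, adjusted p = 1.83e-05) is 6.09-fold in signal, the largest rise of any member. Ndufa4, a protein first assigned to complex I and later found in complex IV, changed by 0.00 (95% confidence interval -0.23 to 0.23). Cox4i2 read 6.29, 6.05 and 6.32 in ES cells and 7.34, 7.51 and 7.29 in Pax7-GFP cells. The groups did not overlap, and Cox4i2 rose by 1.16 (SE 0.10, adjusted p = 4.22e-05), which is 2.23-fold, while Cox4i1 changed by 0.03 (95% confidence interval -0.15 to 0.21). Relative to their partners Ndufa4l2 was higher by 2.61 and Cox4i2 by 1.13, each with an exact permutation p of 0.10 (adjusted 0.111).

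The forms known from testis took 3 courses. Cox6b2 read 8.17, 8.34 and 8.22 in ES cells and 9.45, 9.18 and 8.96 in Pax7-GFP cells, all above the ES arrays. It rose by 0.95 (SE 0.13, adjusted p = 4.31e-04) while Cox6b1 fell, and the change of Cox6b2 relative to Cox6b1 was 1.62 (exact permutation p = 0.10, adjusted 0.111). Cox7b2 read 4.86, 4.74 and 5.14 in ES cells and 4.19, 4.20 and 4.21 in Pax7-GFP cells, and fell by 0.71 (SE 0.11, adjusted p = 9.50e-04) among dim signals. With values under 5 raised to 5, Cox7b2 changed by -0.05 (adjusted p = 0.58), and its change relative to Cox7b turned from -0.58 to 0.09. With the mean of the Cox7b probe sets that value was -0.12. Cox8c changed by -0.04 and did not pass. All 3 germ cell markers measured were lower in Pax7-GFP cells: Dazl (-2.39), Ddx4 (-0.93) and Tex101 (-0.49). Signals of Ddx4 in both groups, and of Dazl and Tex101 in Pax7-GFP cells, lay below the array medians (5.61 to 5.69) and may be background. The part of germ cell expression in the values of Cox7b2, which fell, and Cox6b2, which rose, was not tested.

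Beyond tissue isoforms, Cox7a2l, which takes part in supercomplexes, changed by 0.00 (95% confidence interval -0.20 to 0.21). It did not differ in its change from Cox7a2 beyond the spread of the arrays (-0.05, exact permutation p = 0.60). The ADP/ATP carriers, outside the symbol rule, also come as a form of heart and muscle (Slc25a4) and a form of dividing cells (Slc25a5). Slc25a4 rose by 0.87 (SE 0.082, adjusted p = 5.34e-05) and Slc25a5 fell by 0.34 (SE 0.095, adjusted p = 0.0191). The change of Slc25a4 relative to Slc25a5 was 1.22 (exact permutation p = 0.10, adjusted 0.111).

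**Figure D3:**
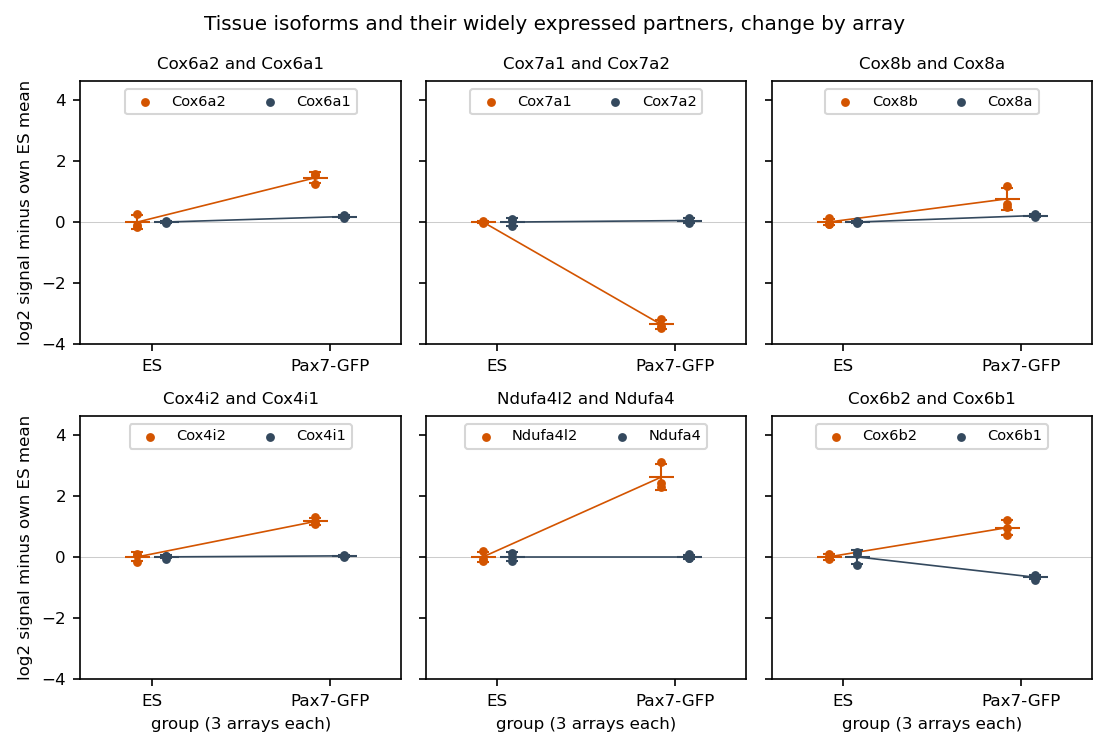
Change of 6 tissue isoforms (orange) and their widely expressed partners (dark) by group, as the log2 signal of each array minus the gene's own ES mean. Points are arrays (3 per group), horizontal marks are group means with bars of 1 SD, and lines join the means. Cox7a1 lies more than 3 below its ES mean on every Pax7-GFP array, the other 5 isoforms lie above theirs, and of the partners only Cox6b1 fell.

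Markers of other cell types that use these isoforms were read beside them. Of 9 cardiac markers 3 fell and 6 did not pass, and the mean of the list was 6.04 to 6.06 on ES arrays and 5.63 to 5.72 on Pax7-GFP arrays. Of 8 brown fat markers 3 rose (Fabp4 by 0.86, Elovl3 by 0.71 and Pparg by 0.48) and 1 fell. Even in Pax7-GFP cells the means of these 3 (5.30, 4.85 and 5.21) lay below the array medians (5.61 to 5.69) and may be background. The list mean was 4.95 to 5.03 on ES arrays and 5.15 to 5.29 on Pax7-GFP arrays. Ucp1, the uncoupling protein that defines brown fat, changed by -0.00. Differentiating muscle markers had a list mean of 5.66 to 5.86 on ES arrays and 8.11 to 8.61 on Pax7-GFP arrays. Among the Pax7-GFP arrays that mean was lowest on the second, where Cox6a2 was also lowest. That array likewise had the lowest Pax7-GFP signal of the partner Cox6a1 (12.35) and the lowest Pax7-GFP median of each complex. Of 7 fibroblast markers 6 rose, and their mean was 6.60 to 6.92 and 8.09 to 8.54. No detection calls accompany the values, so none of these markers can be called absent. The part of these cell types in the isoform values was not tested.

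For 9 members the array held several probe sets of their own, and the brightest over all arrays stood for the gene. In Ndufa8, Atp5g2 and Ndufa12 the probe sets gave the same call. In 6 members they did not. Ndufa11 and Atp5e passed only by the brighter probe set. Cox7b changed by -0.14 by the brighter probe set, which did not pass, and fell by 1.06 by the other. Cox5b changed by 0.20 and did not pass by the brighter probe set, and fell by 0.39 by the other. Atp5h likewise changed by 0.19 without passing, and fell by 0.67 by the dimmer probe set. Atp5d changed by 0.14 without passing and rose by 0.42 by the dimmer. The files do not say which transcript each probe set covers.

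Among the genes that build the chain, falls outnumbered rises. Of 48 genes listed as assembly factors, most of which insert cofactors or help to join subunits, 46 were measured. Of these 3 rose (6.52%, against 19.7% of all genes), 24 fell (52.2%, against 21.4%) and 19 did not pass, with a median of -0.38. In the fit of the 11090 brighter genes, of which 7220 passed, 4 of 45 assembly factors rose and 25 fell. The list also holds Ndufab1, the acyl carrier subunit of complex I (-0.21, not past the test), and Lrpprc (-0.54, past the test) and Taco1 (-0.24, not past), which act on mitochondrial RNA and translation. For complex IV 10 of 17 measured factors fell and 7 did not pass. Among them, at 2-fold or more, were Pet100 (-1.20, SE 0.10, adjusted p = 3.65e-05), Surf1 (-1.10, SE 0.20, adjusted p = 0.00259) and Coa7 (-1.01, SE 0.11, adjusted p = 1.50e-04). Surf1, which takes part in early assembly of complex IV, read 8.47, 8.47 and 8.37 in ES cells and 7.87, 7.06 and 7.07 in Pax7-GFP cells. For complex I 8 of 15 fell and 1 rose: Ndufaf1 fell by 0.99, Nubpl, which delivers iron-sulfur clusters, fell by 0.88, and Timmdc1 rose by 0.53. For complex II Sdhaf2, which adds the flavin to Sdha, fell by 0.52 and Sdhaf1 rose by 0.46. For complex III Uqcc3 fell by 0.99 and Lyrm7 by 0.84, and Ttc19 rose by 0.33, and for complex V Atpaf1 fell by 0.89 and Atpaf2 by 0.58. The number of assembly factors that rose was 1 without ES 1, without ES 3 or without Pax7-GFP 3.

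The mitochondrial ribosome translates the subunits encoded in the mitochondrial genome. Of 71 nuclear genes for its proteins 43 fell (60.6%, against 21.4% of all genes), 2 rose (2.82%, against 19.7%) and 26 did not pass, with a median of -0.41. In the fit of the 11090 brighter genes, of which 7220 passed, 42 of 70 fell and 2 rose. The largest falls were in Mrps18b (-1.60, SE 0.14, adjusted p = 4.39e-05) and Mrpl45 (-1.48, SE 0.078, adjusted p = 2.08e-06). Mrps18b read 10.40, 10.44 and 10.29 in ES cells and 8.55, 8.67 and 9.12 in Pax7-GFP cells. Mrpl23 (0.57) and Mrps17 (0.41) rose, and the number that rose was 1 without ES 2, ES 3 or Pax7-GFP 3. Genes of the mitochondrial genome itself were not analysed here. Of 12 genes for cytochrome c, cytochrome c1 (Cyc1) and the synthesis of ubiquinone, 1 rose (Coq2, 0.60; 8.33%, against 19.7% of all genes) and 2 fell (Coq4, -0.65, and Coq3, -0.64; 16.7%, against 21.4%), and cytochrome c itself, Cycs, did not pass (0.08). Coq2 did not pass without ES 1, ES 2, ES 3, Pax7-GFP 1 or Pax7-GFP 3, the number that rose was 2 without Pax7-GFP 2, and the number that fell was 1 without ES 2 and 3 without Pax7-GFP 1.

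The citrate cycle makes the NADH and succinate that feed the chain. Of its 12 measured genes 5 rose (41.7%, against 19.7% of all genes; 41.1% of all genes passed in either direction) and 7 did not pass, with a median of 0.068. The rises were in Suclg2 (1.24, SE 0.17, adjusted p = 4.86e-04), Dlst (0.81), Dld (0.74), Fh1 (0.56) and Idh3b (0.32). Citrate synthase, Cs, did not pass (-0.07). Of 16 measured genes for glucose uptake and glycolysis 2 rose (12.5%, against 19.7% of all genes) and 6 fell (37.5%, against 21.4%), each fall being 2-fold or more, as in 7.15% of all genes. Slc2a3, a glucose transporter, read 11.30, 11.34 and 11.35 in ES cells and 7.92, 6.61 and 6.78 in Pax7-GFP cells, and fell by 4.23 (SE 0.30, adjusted p = 1.09e-05). Pfkp, a phosphofructokinase, fell by 2.39, while Hk1 rose by 0.99 and Tpi1 by 0.63.

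Regulators of mitochondrial biogenesis, which act on nuclear genes or on the mitochondrial genome, changed in both directions. Of 17 such genes 5 rose (29.4%, against 19.7% of all genes), 8 fell (47.1%, against 21.4%) and 4 did not pass. The falls included Tfb1m (-0.67), Twnk (-0.58), Polrmt (-0.40) and Tfam (-0.38), which act on the mitochondrial genome or its RNA and not on the nuclear subunit genes. Ppargc1b, a coactivator of respiratory genes, read 6.14, 6.03 and 6.30 in ES cells and 8.15, 7.67 and 8.18 in Pax7-GFP cells, a rise of 1.84 (SE 0.15, adjusted p = 2.21e-05). Ppargc1a, its better known relative in muscle, rose by 0.93. Its means of 4.34 in ES and 5.26 in Pax7-GFP cells lay below the array medians (5.61 to 5.69) and may be background. Esrrb, a nuclear receptor that is also a pluripotency marker, fell by 1.46, and Pprc1, the third member of the coactivator family, fell by 0.87. Without ES 3 the number of these genes that fell was 5. Among 7 carriers and channels of the mitochondrial membranes 1 rose (Slc25a4; 14.3%, against 19.7% of all genes) and 3 fell (42.9%, against 21.4%), among them Vdac1 (-0.32), and these 3 falls did not pass without ES 2 or without ES 3.

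**Figure D4:**
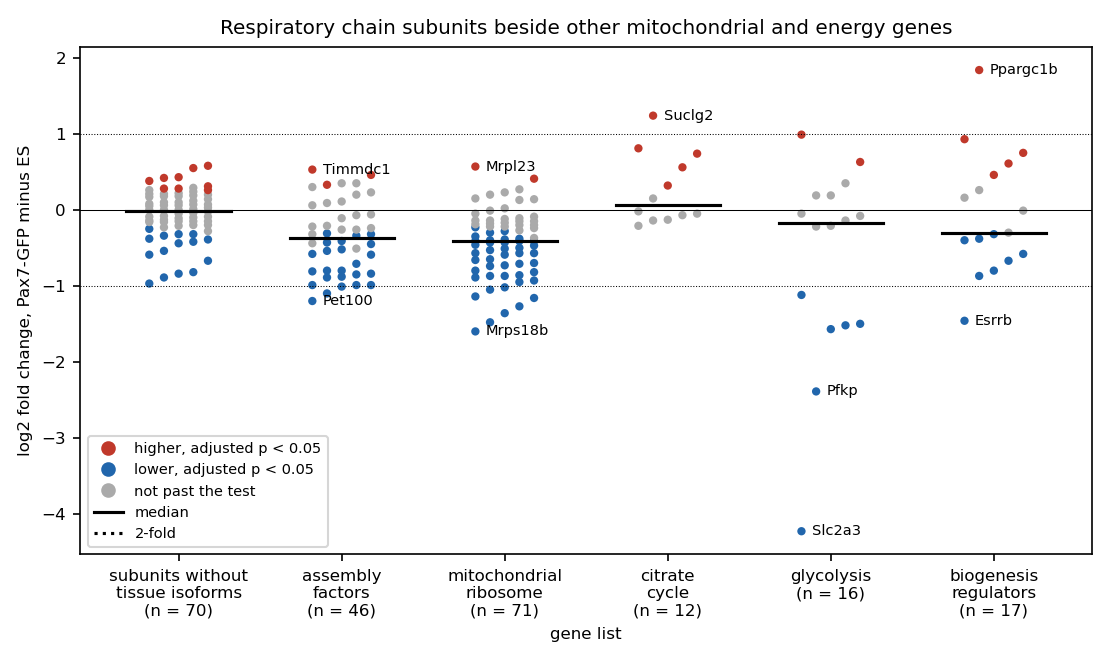
Log2 change (Pax7-GFP minus ES, 3 arrays each) of 70 respiratory chain subunits without tissue isoforms and pseudogenes, beside assembly factors, mitochondrial ribosomal proteins, citrate cycle enzymes, glycolysis genes and biogenesis regulators. Points are genes, coloured by the test, thick lines are medians and dotted lines mark 2-fold. The subunits have a median of -0.0093 and lie between -0.97 and 0.58, and the medians of the assembly factors and the mitochondrial ribosome are -0.38 and -0.41.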

How the data were processed

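Total RNA of 6 samples was hybridised to arrays after double amplification. The deposited values are log2 RMA signals, made by the authors with RMA in R 2.12.1, per the submitters' processing notes. How probe sets were defined, which RMA options were set and which genome build was used is not given in the sources used here. RMA compresses the folds of dim genes. Groups come from the sample titles. Gene symbols came from GEO's platform annotation: 23521 rows carried 1 symbol, 1814 several and 16010 were not listed. Where a gene had several probe sets, the brightest on average stood for it. The groups were compared by limma's moderated two-sided test (limma 3.58.1, R 4.3.3) with Benjamini-Hochberg adjustment over 22180 genes. On simulated data the fit called 31 of 100 log2 changes of 0.5, 95 of 100 of 1.5, and 0 of 21980 unchanged genes. Changes of about 0.5 or less can thus be missed. The simulation held far fewer changed genes than passed here, so its rates need not be those of these data. Isoform pairs were tested by exact permutation.

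The members and lists were chosen with earlier results of these data known. Named by rule were members past the test at 2-fold, the 2 largest rises and falls past the test per complex, the isoform pairs, and from each other list the 2 largest rises and falls past the test. Other genes appear because their values had been seen. Alternatives changed scaling, a signal floor, dim genes, the probe set rule, array weights, the variance prior, the minimum fold and the arrays included, and added a replicate block. Added after the data were seen were each probe set on its own, a named gene's other probe sets, and leaving out the pseudogenes. The number of arrays limits the precision.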

Additional observations from a re-analysis of the deposited data

How the results depend on the processing

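With a minimum of 2-fold in addition, 3212 genes passed in all, with 3 respiratory chain genes higher and 1 lower. Leaving out each array in turn gave 9 to 15 genes higher, 11 to 17 lower, and a complex I median of -0.041 to 0.072. The complex I median was -0.009 with array weights, that of complex II -0.041 and that of complex IV 0.104 after quantile scaling, that of complex III -0.131 without dim genes, and that of complex V -0.076 with the mean of a gene's probe sets. The complex IV median was -0.001 after median scaling and without ES 3, and that of complex V was 0.002 without Pax7-GFP 2, so the medians of complexes I, III, IV and V did not keep their sign. The change of Cox7b2 relative to Cox7b was 0.09 with a signal floor of 5. With the replicate number as a block (replicate block), 8438 genes passed, with 10 respiratory chain genes higher and 14 lower, and Atp5g3 (adjusted p = 0.0657) and Uqcrc2 (adjusted p = 0.0857) did not. Deviations of arrays with the same number correlated at -0.108, -0.22 and 0.007, so the numbers were not taken as pairs. After median scaling Atp5g3 (adjusted p = 0.0812) and Uqcrc2 (adjusted p = 0.0685) did not pass. Cox6a1 passed with the signal floor (adjusted p = 0.0199) and with a trended, robust prior (0.0214), and so did Cox8a (0.00964 and 0.0096), which also passed without Pax7-GFP 1 (0.0492). Cox7b fell by 0.60 with the mean of its probe sets (adjusted p = 0.00166). The cause of these differences was not tested. Background correction could not be varied on values already processed, and no detection calls tell signal from background.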

Other observations

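A further 10 probe sets of respiratory chain genes carried a second symbol and were left out of every count above. Those of Uqcr10 (-0.93, adjusted p = 0.00178), a small complex III subunit, and of Uqcrb (-0.82, adjusted p = 0.0145), each shared with a predicted gene, were past the test. Of 2 probe sets shared by Ndufs6 and Ndufs6b, accessory genes of complex I, 1 was past the test (-0.67, adjusted p = 0.00438) and the other was not (-0.41, adjusted p = 0.0529). A probe set shared by Ndufs5 and its pseudogene rose by 0.37 (adjusted p = 0.0265), whereas the probe set of Ndufs5 alone fell by 0.25. The other probe sets, of Cox6c, Ndufb2, the Ndufb4 genes and Ndufs1, did not pass the test. These p-values come from limma over all rows of the table, and a shared probe set cannot tell its genes apart.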
